A study of Homo sapiens with 2 samples.

Results

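Dickkopf, Kremen and LRP transcripts were measured in SW480 cells that overexpressed hiNOS together with green fluorescent protein (GFP) and in SW480 cells whose empty vector carried only GFP. The set holds the 8 genes of the array whose symbol begins with DKK, KREMEN or LRP (DKK1, DKK2, DKK3, DKK4, KREMEN1, KREMEN2, LRP5 and LRP6), out of 113 genes of the Wnt pathway. SW480 is a human colorectal adenocarcinoma line, and hiNOS is an inducible nitric oxide synthase, the enzyme that makes nitric oxide in inflamed tissue. Both lines were stable cells sorted on GFP and grown for weeks before RNA extraction, and the promoter of the vector is not given in the sources used here. Each group holds 1 membrane array, hybridised with biotin-labelled cRNA, so every difference below describes 2 arrays, no value has a replicate and no p-value was computed. Neither NOS2, which encodes the enzyme, nor any of 7 intestinal epithelial markers was on the array, so neither the overexpression nor the cell type could be checked from these spots.

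Dickkopf proteins are secreted antagonists of Wnt signalling. LRP5 and LRP6 are the co-receptors that join Frizzled receptors at the cell surface when a Wnt ligand binds, and their phosphorylated tails then recruit AXIN1 away from the complex that degrades beta-catenin. DKK1 and its relatives occupy LRP5 and LRP6, and the Kremen receptors bind Dickkopf and help to remove the co-receptor from the membrane. In colorectal tumours the pathway is usually active from a lesion below this level, most often the loss of APC, and DKK1 and DKK4 are known there as genes that beta-catenin and TCF factors can switch on.

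Values are the average density of a spot in scanner units, with the background of the membrane still in them. The 6 negative-control spots (2 blanks, a plasmid and artificial sequences) averaged 12187 ± 740 units on the hiNOS array and 12354 ± 328 units on the GFP array (SD over spots). The biotinylated positive control averaged 49565 units on the hiNOS array and 50047 units on the GFP array. The dimmest gene that the authors' software called present had 18525 units on the hiNOS array and 18982 units on the GFP array. Where a level is given as a share of the span, 0% is the mean of the 2 blanks and 100% the mean of the positive control of the same array. Different genes were read by different probes, so the density of one gene is not ranked against that of another.

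DKK3, DKK4 and KREMEN2 were called present on both arrays and the other 5 members on neither. That is 3 of 8 members (37.5%), where the same call covered 45.1% of all 113 genes on the hiNOS array and 46.9% on the GFP array. As 1 gene more or less moves the members' share by 12.5 points, it lay near both of these. On at least 1 array the call covered 52.2% of the 113 genes, above the members' 37.5% by more than 1 gene of the 8. Above background, DKK4 was lower and KREMEN2 higher on the hiNOS array, while DKK3 sat at the bright end of both. Both co-receptor genes were called absent on both arrays, as were DKK1, DKK2 and KREMEN1. None of the 8 spots was called bleeding on either array.

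**Figure D1:**
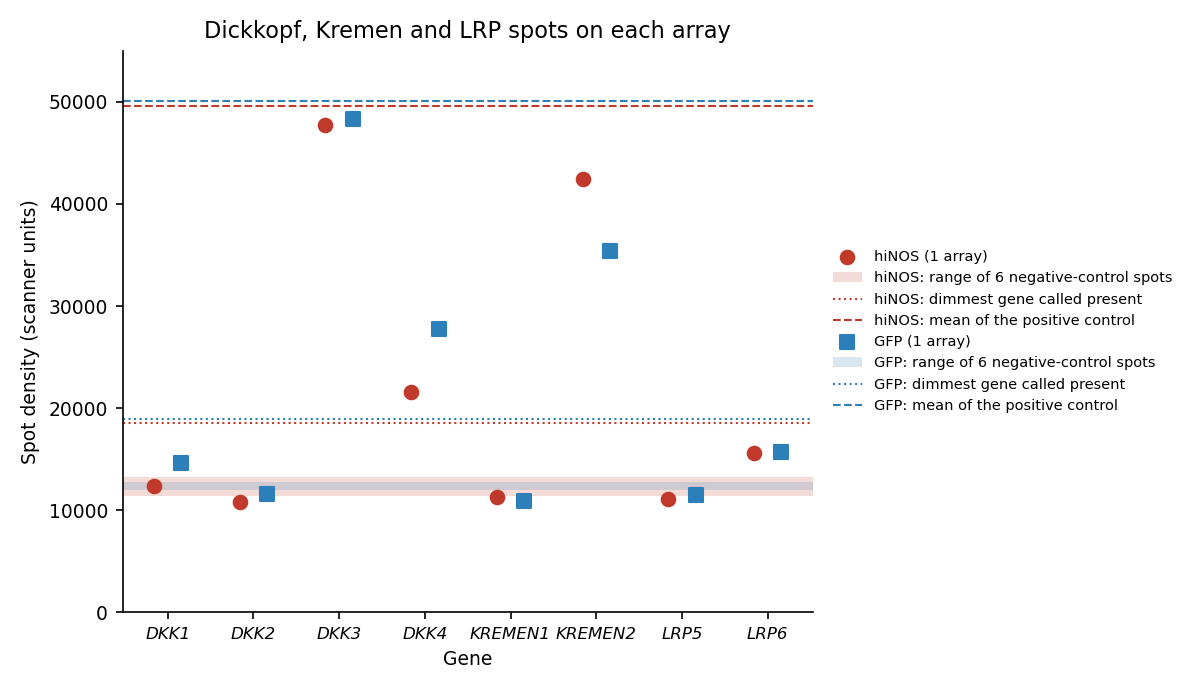
Spot density (vertical axis, scanner units) of the 8 genes on the hiNOS array (circles) and the GFP array (squares), 1 array each. Bands span the 6 negative-control spots, dotted lines mark the dimmest gene called present and dashed lines the mean of the positive control; DKK3, DKK4 and KREMEN2 lie above the dotted lines and DKK2, KREMEN1 and LRP5 below the bands on both arrays.

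Among the antagonists, DKK4 encodes a secreted Dickkopf that binds the LRP co-receptors. Its spot had 21559 units on the hiNOS array, against 27749 units on the GFP array. In RNA from many cells, fewer cells with the transcript and less transcript per cell cannot be told apart. Those densities are 24.8% of the span with hiNOS and 40.2% of the span with GFP. DKK4 was thus lower with hiNOS while all 6 negative controls stayed below it on each array. After subtraction of the blanks and scaling to GAPDH and ACTB it was 1.63-fold lower with hiNOS, a log2 ratio of -0.71. With the same scaling and no subtraction it was 1.28-fold lower. The GAPDH and ACTB spots averaged 48775 units with hiNOS and 49004 units with GFP, close to the positive control, and whether they could register a difference in loading was not tested. Before that scaling, DKK4 lay 9223 units above the blanks with hiNOS and 14999 units above them with GFP. Its density difference of -6189 units lay outside the range of -4169 to 3648 units over the 54 genes absent on both arrays. By log2 ratio of density (-0.36) it lay inside their range of -0.41 to 0.35. Those 54 spots are dimmer than DKK4, so neither range gives the scatter at its density.

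The difference in DKK4 was larger than the gap between any pair of duplicate spots within an array, but other genes differed by more. Duplicate spots of the blank, HSPCB, ACTB and the positive control (8 pairs over the arrays) were 57.1 to 1256 units apart, and apart from the blanks these spots lie at the bright end. Each pair compares spots of the same array, so the pairs do not give the scatter between arrays. Of the 23 genes called present on both arrays and not near the bright end of either, 3 had a lower log2 ratio than DKK4 and 5 a larger ratio in either direction. By number on the array, the DKK4 spot lies between DKK3 and DVL1, both at the bright end. DVL1 had 48045 units with hiNOS and 47695 units with GFP, so neither of these neighbours was dimmer with hiNOS by more than the 578 units of DKK3, and any part of theirs in the density of DKK4 was not tested.

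DKK3 encodes a divergent member of the family whose action on the LRP co-receptors is less clear than that of DKK1. It had 47766 units on the hiNOS array and 48345 units on the GFP array. These are 96.4% of the positive control's density with hiNOS and 96.6% with GFP. The log2 ratio was -0.014, and in this range 19 of the 113 genes crowded on both arrays. Whether such a bright spot could register a difference was not tested.

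DKK1, the best studied antagonist of LRP5 and LRP6, is the member that the authors' deposited table lists as under-expressed with hiNOS. It had 12422 units on the hiNOS array, where 4 of the 6 negative controls were dimmer, against 14628 units on the GFP array, where all 6 were dimmer. DKK1 therefore lay among the negative controls with hiNOS, 0.317 SD above their mean, and 6.93 SD above their mean with GFP. The SD of those controls was 740 units with hiNOS and 328 units with GFP, so these 2 multiples are not compared. DKK1 was called absent on both arrays. Its density was lower by 2206 units on the hiNOS array, and the negative controls differed by -1014 to 878 units between the arrays. Among the 54 genes absent on both arrays, DKK1 had the 3rd lowest difference, after FRAT2 and EP300.

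The authors' deposited table gives DKK1 a ratio of 0.048, the lowest of the 15 positive ratios among its 23 under-expressed genes. The other 8 listed ratios are negative because a spot lay under the blanks. Under-expressed genes in that table make up 20.4% of the 113, and over-expressed genes, none of them a member, 14.2%. DKK1 is 1 of 8 members, or 12.5%. A shift of 1 gene moves the members' share by 12.5 points, so it lay near the under-expressed share over the array. Of the 23 under-expressed genes, 13 were called absent on both arrays, DKK1 among them.

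The size of the DKK1 ratio rests on the 2 blank spots of the hiNOS array. The first, at position 116, had 11708 units and the second, at position 117, had 12964 units, which is 1256 units apart, against 57.1 units apart on the GFP array. With their mean subtracted, DKK1 kept 85.7 units with hiNOS and 1878 units with GFP, a ratio of 0.0456. This ratio and those that follow are of unscaled densities, while the deposited 0.048 is a ratio of scaled ones. With the first blank alone it kept 714 units with hiNOS and 1906 units with GFP, a ratio of 0.375. With the second blank alone it lay below background with hiNOS, at -543 units, and kept 1849 units with GFP, so no ratio can be given. With the median negative control subtracted it kept 499.7 units with hiNOS and 2363 units with GFP, a ratio of 0.211. With the lowest spot of each array subtracted the densities were 1913 units with hiNOS and 4233 units with GFP, a ratio of 0.452. DKK1 was dimmer with hiNOS under each of the 5 backgrounds tried. Each background is 1 value per array, and none differed between the arrays by as much as the 2206 units of DKK1. The shared direction therefore restates the densities and adds no support. The lowest spot was chosen as a background after seeing the data. The size of the fold is not fixed by these spots.

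**Figure D2:**
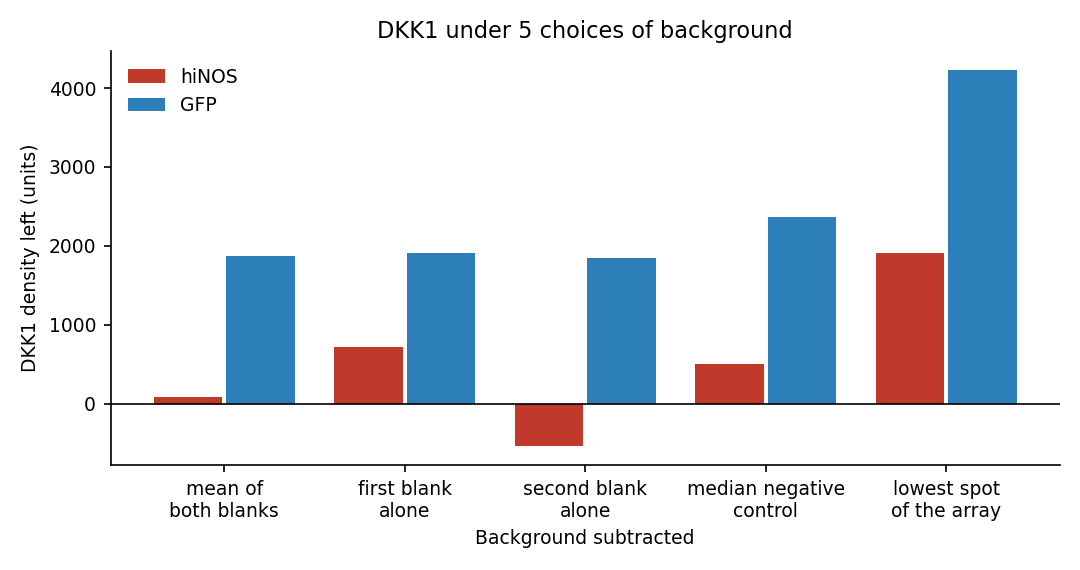
DKK1 density left after subtraction of 5 backgrounds (horizontal axis), in scanner units, on the hiNOS array (left bars) and the GFP array (right bars), 1 array each. The hiNOS bar runs from -543 to 1913 units with the choice of background, and the GFP bar is taller in each pair.

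The bases before the DKK1 start were read because DKK1 is the listed member and a known TCF target. Bases from the RefSeq promoter table used (GRCh38.p14) were read for DKK1 and LRP5, which are 2 of the 8 members. DKK4 was left out of the reading, which does not mean that it lacks an entry. For DKK2, DKK3, KREMEN1, KREMEN2 and LRP6 no entry with 250 bases was found. The 250 bases before the start of DKK1, at chr10:52314031-52314280 on the plus strand, are given 5′ to 3′ with matches to the TCF/LEF core in capitals.
DKK1: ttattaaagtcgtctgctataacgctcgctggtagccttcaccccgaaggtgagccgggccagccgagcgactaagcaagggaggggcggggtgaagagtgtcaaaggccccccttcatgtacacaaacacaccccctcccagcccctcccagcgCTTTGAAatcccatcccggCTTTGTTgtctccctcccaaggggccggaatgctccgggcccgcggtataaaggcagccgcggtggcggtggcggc
The core searched was CTTTG followed by a pair of bases that are each A or T, which makes 4 forms, on both strands. DKK1 holds CTTTGAA starting 95 bases before the start and CTTTGTT starting 76 bases before it, and the 2 do not overlap. At least 1 of the 4 forms stands in this window in 12.0% of the 35116 promoters held by RefSeq's table, and 2 or more in 1.21%. LRP5 holds 0 matches. A match describes the letters and is not a measured binding site.

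DKK2 encodes a Dickkopf that can block or activate LRP6 depending on the cell. Its spot had 10830 units on the hiNOS array and 11608 units on the GFP array. Both are below every negative control of the same array. Its difference of -778 units lay within the range of the negative controls.

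Of the Kremen receptors, KREMEN2 was called present and KREMEN1 was not. KREMEN2 had 42434 units on the hiNOS array, or 80.8% of the span, against 35352 units on the GFP array, or 60.6% of the span. It was 1.32-fold higher with hiNOS after blank subtraction and scaling, a log2 ratio of 0.41. With the same scaling and no subtraction it was 1.21-fold higher. Its density was 85.6% of that of the positive control with hiNOS and 70.6% with GFP. Whether so bright a spot could register a difference in full was not tested. The difference of 7082 units was larger than the gap in every duplicate pair within an array, which does not give the scatter between arrays at this density. Of the 59 genes present on at least 1 array, 5 had a larger positive difference. Of the 23 genes present on both arrays and not near the bright end, 4 had a higher log2 ratio and 9 a larger one in either direction. The spots numbered before and after it, KREMEN1 and LEF1, were dim on both arrays.

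KREMEN1 encodes the other receptor for Dickkopf proteins. Its spot had 11294 units on the hiNOS array and 10908 units on the GFP array. Like DKK2, it lay below every negative control of its array, and the difference of 386 units was within their range. A level of KREMEN1 above background was not detectable on these membranes.

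Of the co-receptors, LRP6 had 15634 units on the hiNOS array and 15677 units on the GFP array. These densities were 4.65 SD above the mean of the negative controls with hiNOS and 10.1 SD with GFP, and all 6 controls were dimmer on each array. The SD of those controls was 740 units with hiNOS and 328 units with GFP, so these multiples are not compared between arrays. LRP6 was nevertheless called absent on both, below the dimmest gene called present, and no fold is given. The difference of -42.8 units was smaller than the gap between the closest pair of duplicate spots within an array.

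LRP5 had 11080 units on the hiNOS array and 11486 units on the GFP array, below every negative control of its array. DKK2, KREMEN1 and LRP5 shared this place with 14 other genes: 17 of the 113 genes lay below every negative control on both arrays. The blanks were thus not the dimmest spots of the membrane, and a background set by them leaves these 3 members below 0.

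Measured against the negative controls in place of the call, DKK3, DKK4, KREMEN2 and LRP6 exceeded the brightest of them on the hiNOS array, and these 4 and DKK1 did so on the GFP array. That is 50% of the members with hiNOS and 62.5% with GFP, where 62.8% of all genes with hiNOS and 72.6% with GFP did so. The same members exceeded the mean of the negative controls plus 3 SD, as did 56.6% of all genes with hiNOS and 65.5% with GFP. On both arrays and by both rules the members' share was at most about 1 gene of the 8 below that of the array.

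After blank subtraction, none of the 3 members above background differed by 2-fold in either direction. Among the 59 genes present on at least 1 array, 3 were 2-fold higher (5.08%) and 6 were 2-fold lower (10.2%), with a gene absent on 1 array taken at its bound. The median log2 ratio was -0.014 over the 3 members above background and -0.0065 over the 59 genes, and the first is the ratio of DKK3, a spot at the bright end. Without spots near the bright end of either array the medians were -0.15 over the 2 members left and -0.076 over the genes left. At a 1.5-fold rule DKK4 was the 1 member counted, on the lower side, where 16.9% of the 59 genes were lower and 10.2% higher.

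**Figure D3:**
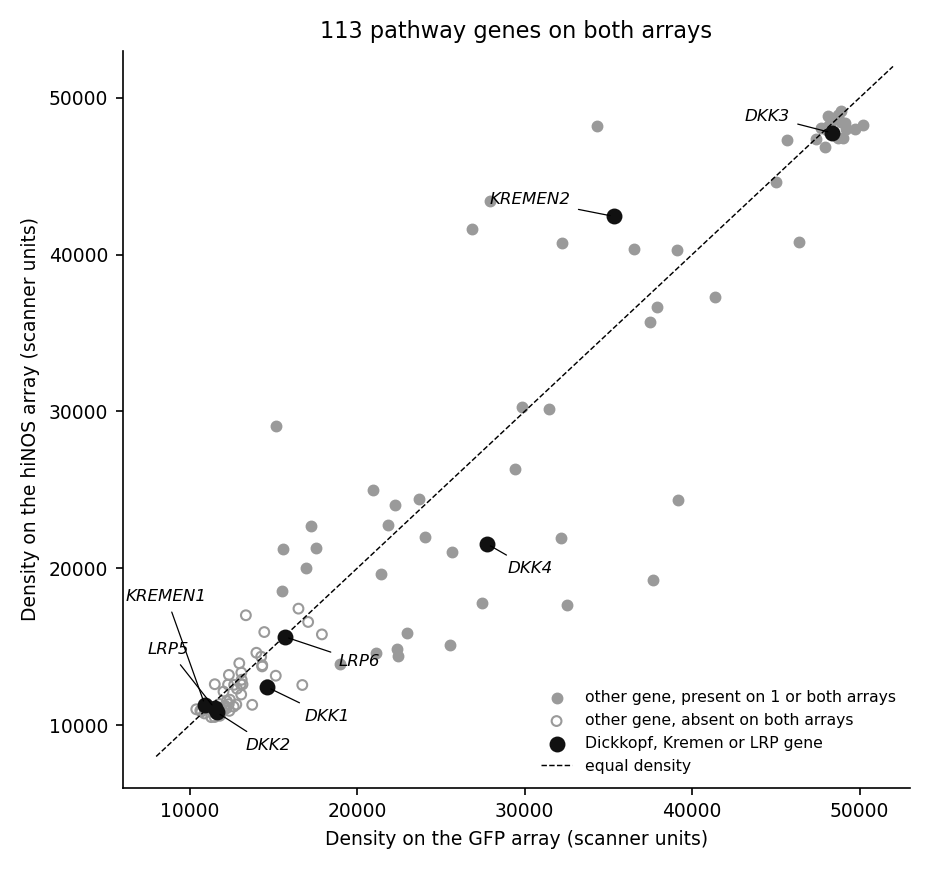
Density on the hiNOS array (vertical axis) against density on the GFP array (horizontal axis), in scanner units, for 113 genes. Black points are the 8 Dickkopf, Kremen and LRP genes, filled grey points other genes called present on at least 1 array, open points other genes absent on both; DKK4 lies below the line of equal density, KREMEN2 above it, and DKK3 in the cluster at the bright end.

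**Figure D4:**
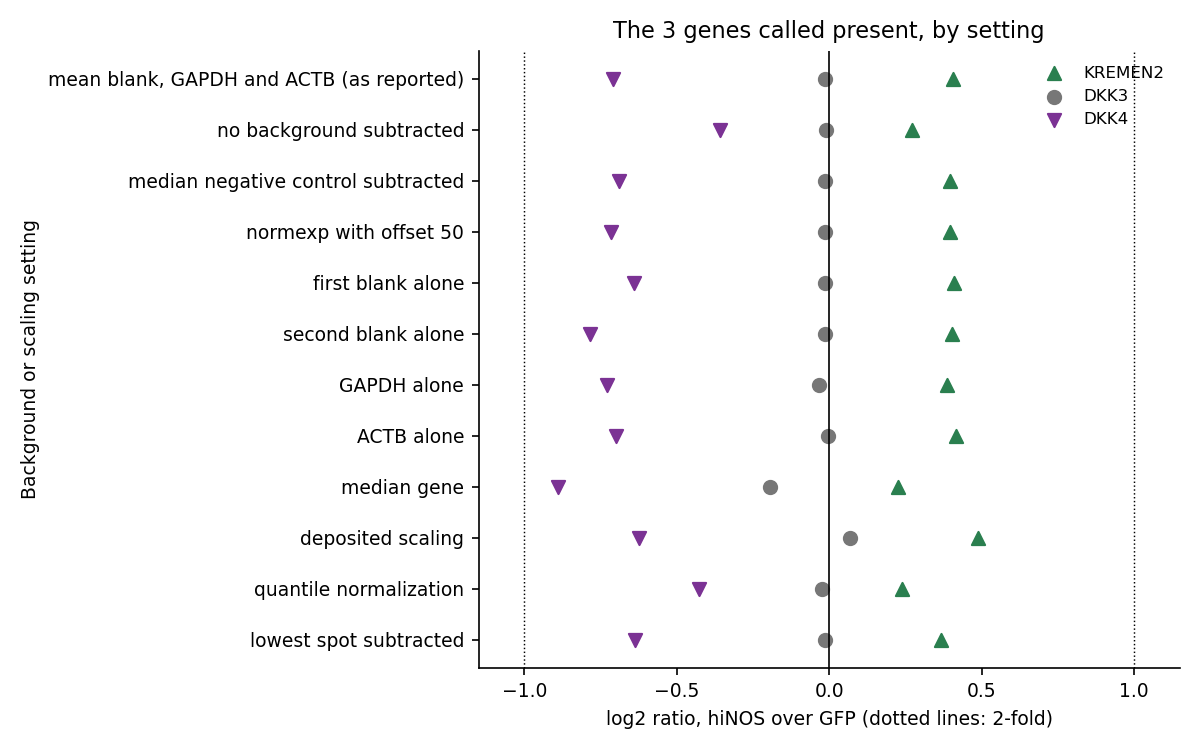
Log2 ratio of hiNOS over GFP (horizontal axis) for KREMEN2, DKK3 and DKK4 under 12 settings of background and scaling (vertical axis), 1 array per group. DKK4 runs from -0.89 to -0.36 and KREMEN2 from 0.23 to 0.49, each on 1 side of 0 and inside the dotted 2-fold lines. DKK3 runs from -0.19 to 0.069, across 0.

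Genes that act with these proteins were described from lists chosen with earlier results of these data known. Of the Frizzled receptors, which share the ligand with LRP5 and LRP6, 4 of 10 (40%) were above background on at least 1 array, where 52.2% of all 113 genes were, and 0 were 2-fold higher or lower. Of the other secreted antagonists on the array (Frizzled-related proteins and WIF1), 3 of 5 (60%) were above background and 0 were 2-fold higher or lower. Of 11 cytoplasmic partners of the activated co-receptor, 9 (81.8%) were above background, 1 (CSNK1D) was 2-fold higher and 0 were 2-fold lower, and 5 lay at the bright end on both arrays. Of 11 feedback and target genes of the pathway, 8 (72.7%) were above background, 1 (NKD1) was 2-fold higher and 0 were 2-fold lower. Over all genes above background 5.08% were 2-fold higher and 10.2% were 2-fold lower, and a single gene per list is read as no more than a count. The median log2 ratios of these lists were 0.23 for the Frizzled receptors (0.11 where those called on 1 array were bounded), -0.056 for the other antagonists, 0.024 for the partners and -0.028 for the targets. No direction is given for them, since scaling alone moved the median over all genes between -0.19 and 0.077.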

How the data were processed

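The film of each membrane was scanned and read with GEArray Expression Analysis Suite 2.0, per the series text. Each deposited intensity is a mean spot density, still holding the membrane's background, per the file headers. A second deposited intensity table was matched to within 0.005 by taking off the mean blank and dividing by the mean over the middle 50% of the 128 spots. The authors' list of genes beyond 2-fold uses that scale for hiNOS over GFP and is treated as a score, since its values can be negative. Per the file headers, the software calls a spot absent under 1.5 times a mean local background.

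For ratios, the mean of the 2 blanks was subtracted, each array was scaled to its 3 GAPDH and ACTB spots treated alike (the series text scales to both), and log2 of hiNOS over GFP was taken. Genes absent on both arrays get no fold. A gene absent on 1 array gets a bound, in which its dim side is raised to the dimmest gene called present there. "Near the bright end" is at least 90% of the positive control. RefSeq holds the files' accessions for 112 of 113 genes. FZD5 carries another symbol on the array and was named from its description as a Frizzled receptor. No probe sequence was used, so cross-hybridisation between related genes could not be examined. All members are named. Members, lists and settings were chosen with earlier results of these data known. The number of arrays limits the precision. The ratio code was tested on simulated data without noise and with every gene called present, so only its arithmetic was checked. Python 3.11.15, pandas 2.3.3 and, for normexp (offset 50), limma 3.58.1 in R 4.3.3 were used. Alternatives covered background, scaling, filter and fold rule.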

Additional observations from a re-analysis of the deposited data

How the results depend on the processing

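DKK4 was lower and KREMEN2 higher with hiNOS under the 11 alternatives of background and scaling, which alone could move their ratios: DKK4 ran from 1.28-fold lower with no background subtracted to 1.85-fold lower with scaling to the median gene, and KREMEN2 from 1.17-fold to 1.40-fold higher. The count of members 2-fold higher was 0 throughout. The count 2-fold lower was 0 except for 1 with no filter (DKK1, absent on both arrays) and 1 with the 1.5-fold rule (DKK4). The members' median log2 ratio moved to -0.19 with the median gene, 0.069 with the deposited scaling and -0.15 without spots near the bright end; the median of all genes moved to -0.19 and 0.077 with those 2 scalings. On the GFP array 5 members were above background against the highest negative control, and 5 against the mean plus 3 SD, in place of 3. Over all genes, 3 higher and 6 lower became 0 and 0 with no background subtracted, 1 and 6 with the median gene, 3 and 4 with the deposited scaling, 5 and 3 with quantile normalization, 1 and 4 with the lowest spot subtracted (chosen after seeing the data), 10 and 15 with no filter, 2 and 3 for genes present on both arrays, 10 and 13 with the highest negative control, and 6 and 11 with genes absent on 1 array at their measured ratio. The cause of these moves was not tested beyond what each setting changes by construction. No paired analysis was possible because there is 1 array per group. Signal over background limits the 5 members called absent.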
